A study of Mus musculus with 54 samples.

Results

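The genes examined here were 10 antioxidant and NRF2 target genes, of 54356 genes listed in each of the 2 tables of normalized counts, for the heart and for the liver. They were taken by gene name: Nqo1, Hmox1, Gclc, Gclm, Txnrd1 and Srxn1, which are classical inducible targets of the transcription factor NRF2, and Sod2, Cat, Gpx1 and Prdx3, which encode enzymes that remove superoxide and hydrogen peroxide. All 10 had a mean normalized count of at least 10 in both tissues and so entered the tests, among 16057 heart and 15314 liver genes. The study asked how the accuracy of mitochondrial protein synthesis shapes the response of mice to a high-fat diet. RNA from whole hearts and whole livers of 3 Mrps12+/+, 3 Mrps12ep/ep and 3 Mrps12ha/ha mice was sequenced as 3 technical libraries for each mouse and tissue, 54 in all. Mrps12ep/ep mice carry on both copies an error-prone form, and Mrps12ha/ha mice a hyper-accurate form, of MRPS12, a protein of the decoding centre of the mitochondrial ribosome. Mrps12+/+ mice were wild-type littermates matched for age. All mice were of the strain C57BL/6, were 20 weeks old and had eaten the same diet with 42% of its energy as fat, so that no group on ordinary chow stands beside them here, and the mutations are present in every cell and not in 1 tissue. The methods of the study describe male mice.

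NRF2, encoded by Nfe2l2, is held in the cytoplasm by KEAP1 and degraded until oxidants or electrophiles modify KEAP1. NRF2 then enters the nucleus, pairs with a small MAF protein and switches on genes that carry an antioxidant response element, while BACH1 occupies the same elements as a repressor and is displaced by heme. The enzymes of the second set work in sequence: SOD2 turns the superoxide that leaks from the mitochondrial respiratory chain into hydrogen peroxide, and catalase in peroxisomes, the glutathione peroxidase GPX1 and the mitochondrial peroxiredoxin PRDX3 break the peroxide down. The liver carries a large store of catalase, GPX1 and glutathione, and red blood cells are also rich in catalase and GPX1.

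The core of the antioxidant response element, TGACNNNGC, was searched on both strands in the 250 bases before each start site in the RefSeq promoter table (GRCm38.p6), to show which members carry it near their start. Promoters of 8 of the 10 members were in the table. Hmox1 and Gclc were not in it and so were not searched, and elements further upstream were not searched for any gene. The core was present in 2 of these 8 genes, Gclm and Txnrd1, against 11.5% of the 27025 genes with a promoter there. The 2 windows are given on the strand of the gene, with the core in capitals as it reads when it lies on the opposite strand. The Gclm window spans chr3:122245403-122245451 on the plus strand, with the core 134 bases before the start. The Txnrd1 window spans chr10:82859094-82859142 on the plus strand, with the core 92 bases before 1 of the starts. Neither window overlaps an annotated exon of its own gene, and exons of other genes were not checked.
Gclm: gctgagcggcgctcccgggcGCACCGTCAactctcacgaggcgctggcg
Txnrd1: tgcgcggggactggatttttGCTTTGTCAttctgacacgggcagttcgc

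The hearts held 11202866 to 51480271 reads and the livers 21238039 to 81518239, read back from the normalized counts. Mrps12ha/ha heart 2 was the shallowest of the hearts and stood apart from the other mice of its genotype. For the 10 genes, each difference of the Mrps12ha/ha hearts is therefore also given without it. Mrps12 itself, which carries point mutations, was listed at 1028 to 1397 in the hearts and 1508 to 1914.5 in the livers. Its level did not pass the test in any comparison (adjusted p of 0.324 or more, limma) and does not check the labels. The 7 cardiomyocyte markers summed to 69943 to 106013 reads per 1000000 reads of the library (RPM) in the hearts and to 149 or less in the livers, and the 6 hepatocyte markers listed, of 7, to 87782 to 119109 in the livers and to 441 or less in the hearts, as the tissue labels say. Hearts also differed in other tissue markers. The 2 mesothelial markers summed to 1.0 to 2.32 RPM in the Mrps12ha/ha, 7.88 to 33.1 in the Mrps12+/+ and 3.61 to 57.3 in the Mrps12ep/ep hearts, and the 5 atrial markers to 135 to 311 RPM in the Mrps12ha/ha, 246 to 5069.8 in the Mrps12+/+ and 50.2 to 12890.5 in the Mrps12ep/ep hearts. Both mesothelial markers and 1 of the 5 atrial markers were lower without overlap in Mrps12ha/ha than in Mrps12+/+ hearts, as were 10.0% of all genes. None of these markers passed the test. Without Mrps12ha/ha heart 2, 1 mesothelial marker did, in a fit that called 27% of all genes. The part of mesothelial and atrial RNA in the Mrps12ha/ha differences was not tested. Mrps12ep/ep heart 2 had the highest summed atrial and mesothelial markers and the highest fibroblast markers (1471 RPM), and Mrps12+/+ heart 3 had 374 RPM of brown adipocyte markers against 33.7 to 59.2 elsewhere. Among the livers, Mrps12+/+ mice 1 and 2 had 439.5 and 508 RPM of skeletal muscle markers against 4.12 or less elsewhere, and Mrps12+/+ mouse 3 had 16749.9 of acute phase transcripts against 1039 or less. Because these are bulk samples, fewer cells of a type and less RNA in each cell cannot be told apart.

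Per length of exon, Cat had the highest median of the 10 genes in both tissues. In the heart, Cat had a median of 171 RPM per kb of exon over the 9 mice, followed by Prdx3 at 141, Sod2 at 70.5, Gpx1 at 46.4 and Nqo1 at 31.2. The remaining genes lay lower, with Srxn1 at 10.9, Txnrd1 at 9.08, Hmox1 at 6.51, Gclc at 5.77 and Gclm at 3.97. Neighbours in this order overlapped over the 9 hearts except Prdx3 and Sod2, Gpx1 and Nqo1, and Nqo1 and Srxn1. In the liver the order began with Cat at 1192 and Gpx1 at 1064, which overlapped, and went on with Gclc at 77.5, Prdx3 at 60.5, Gclm at 24.8, Hmox1 at 19.6, Srxn1 at 19.1, Sod2 at 17.3, Txnrd1 at 14.0 and Nqo1 at 3.53. Here the breaks without overlap lay between Gpx1 and Gclc, Prdx3 and Gclm, and Txnrd1 and Nqo1. Set side by side across the 2 tables, which were normalized separately and were not tested against each other, the median level of Gpx1 was 22.9 times, of Gclc 13.4 times, of Cat 6.97 times and of Gclm 6.24 times as high in the liver as in the heart. Nqo1 lay the other way, at 8.84 times the liver level in the heart, as did Sod2 at 4.08 times and Prdx3 at 2.33 times. The merged exons of Sod2, 10.0 kb in total, and of Gclm and Txnrd1 hold long stretches that not every transcript uses, which lowers their values on this scale.

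**Figure D1:**
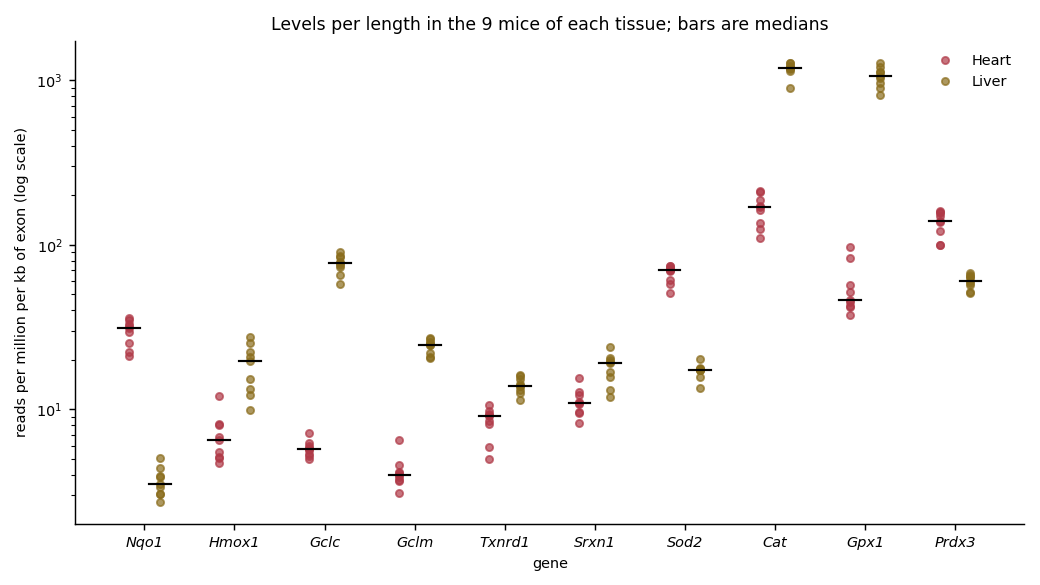
Level of the 10 genes in RPM per kb of merged exon (log axis), 1 point for each mouse, with the median of the 9 hearts and of the 9 livers as a bar. Cat and Gpx1 reach medians of 1192 and 1064 in the liver, and Nqo1 is the gene with the lowest liver median, 3.53, and with a heart median of 31.2.

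None of the 10 genes passed the test in any of the 6 comparisons (limma on log2 of the normalized count plus 1, Benjamini-Hochberg over all genes tested in the tissue). At an unadjusted p under 0.05 there were 2 of them, Txnrd1 and Hmox1, for Mrps12ha/ha and 1, Gclc, for Mrps12ep/ep against Mrps12+/+ hearts, 1, Txnrd1, for Mrps12ha/ha against Mrps12ep/ep hearts, and 0 in each liver comparison. Over all genes tested these shares were 19.7%, 1.69% and 17.9% in the heart and 14.1%, 9.74% and 8.62% in the liver, for Mrps12ha/ha against Mrps12+/+, Mrps12ep/ep against Mrps12+/+ and Mrps12ha/ha against Mrps12ep/ep, so that the 2 of 10 and 1 of 10 of the Mrps12ha/ha heart comparisons did not stand out from the background. In the heart of Mrps12ha/ha against Mrps12+/+ mice, 0.0311% of all genes tested passed, 5 genes, all lower. For Mrps12ha/ha against Mrps12ep/ep hearts this share was 0.0249%, and for Mrps12ep/ep against Mrps12+/+ hearts it was 0%, with 271 genes at an unadjusted p under 0.05. In each of the 3 liver comparisons 1 gene passed, 0.00653%. All p-values measure the spread between 3 mice a genotype, and an exact permutation test of 3 against 3 mice cannot go below p = 0.1. The members are therefore described by their values in each mouse, the estimated difference and its 95% confidence interval, and whether the mice of 2 genotypes overlap.

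Among the inducible targets in the heart, Txnrd1 and Hmox1 were those whose Mrps12ha/ha mice all lay below all Mrps12+/+ mice. Txnrd1 (ENSMUSG00000020250.10, chr10:82833951-82897712, plus strand), the cytosolic selenoenzyme that keeps thioredoxin reduced, was counted at 2123.5, 2146 and 2436 in the 3 Mrps12+/+ hearts, at 2014, 1911 and 2240.4 in the Mrps12ep/ep hearts and at 1173, 1951 and 1378 in the Mrps12ha/ha hearts. Mrps12ha/ha hearts 1 and 3 were the lowest of the 9, and heart 2 lay within the range of the Mrps12ep/ep mice. The level in Mrps12ha/ha hearts was 0.657 times that of Mrps12+/+ hearts, a log2 difference of -0.61 (SE 0.18, 95% confidence interval -0.999 to -0.21, adjusted p = 0.204). Against Mrps12ep/ep hearts it was -0.48 (interval -0.88 to -0.09, adjusted p = 0.249), and between Mrps12ep/ep and Mrps12+/+ hearts it was -0.12 (interval -0.51 to 0.27, adjusted p = 1.0). Without Mrps12ha/ha heart 2, Txnrd1 fell by 0.81 on the log2 scale against Mrps12+/+ (adjusted p = 0.00382) and by 0.69 against Mrps12ep/ep (adjusted p = 0.00686), in fits that called 27% and 23.2% of all genes. Without Mrps12ha/ha heart 1 the differences were -0.44 (adjusted p = 0.540) and -0.32 (adjusted p = 0.542).

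Hmox1 (ENSMUSG00000005413.8, chr8:75093621-75100589, plus strand), heme oxygenase 1, which splits heme into biliverdin, iron and carbon monoxide, was counted at 391, 366 and 680.5 in the Mrps12+/+ hearts, at 323, 413.5 and 463 in the Mrps12ep/ep hearts and at 291, 278 and 296 in the Mrps12ha/ha hearts. The Mrps12ha/ha mice were nearly equal to one another and below all 6 other hearts, while Mrps12+/+ heart 3 stood well above the rest. The Mrps12ha/ha level was 0.627 times that of Mrps12+/+ hearts (log2 difference -0.67, interval -1.21 to -0.14, adjusted p = 0.214) and 0.729 times that of Mrps12ep/ep hearts (-0.46, interval -0.99 to 0.08, adjusted p = 0.322). The Mrps12ep/ep hearts overlapped the Mrps12+/+ hearts, with a difference of -0.22 (interval -0.75 to 0.32). Without Mrps12+/+ heart 3 the difference of Mrps12ha/ha from Mrps12+/+ was -0.39 (adjusted p = 0.437), and that of Mrps12ep/ep turned positive (0.06). Leaving out Mrps12ha/ha heart 2 gave -0.65 against Mrps12+/+ (adjusted p = 0.114) and -0.43 against Mrps12ep/ep (adjusted p = 0.291).

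The subunits of glutamate-cysteine ligase, which makes the first bond of glutathione, differed less. Gclc (ENSMUSG00000032350.9, chr9:77754535-77794485, plus strand), the catalytic subunit, was counted at 773, 705 and 873 in the Mrps12+/+ hearts, 633, 637 and 647 in the Mrps12ep/ep hearts and 701, 667 and 749 in the Mrps12ha/ha hearts. The Mrps12ep/ep mice lay within a narrow band below all other hearts, at 0.819 times the Mrps12+/+ level (log2 difference -0.29, interval -0.55 to -0.03, adjusted p = 1.0), and the Mrps12ha/ha mice lay above all of them (0.14, interval -0.12 to 0.40, adjusted p = 0.499). Gclm (ENSMUSG00000028124.15, chr3:122245557-122270732, plus strand), the modifier subunit, was counted at 860.3, 754 and 1335 in the Mrps12+/+ hearts, 657, 844 and 831 in the Mrps12ep/ep hearts and 823, 830.5 and 762 in the Mrps12ha/ha hearts. Its genotypes overlapped in all 3 comparisons, with differences of -0.24 for Mrps12ha/ha (interval -0.70 to 0.21) and -0.30 for Mrps12ep/ep (interval -0.76 to 0.15) against Mrps12+/+. Without Mrps12+/+ heart 3 these became -0.0012 and -0.06. Gclm shares 244 exon bases with a pseudogene on its own strand, so that its reads may be split.

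Nqo1 (ENSMUSG00000003849.8, chr8:107388225-107403206, minus strand), the quinone reductase often used to read out NRF2, was counted at 1847, 1747 and 1486 in the Mrps12+/+ hearts, 1683, 1015 and 1666 in the Mrps12ep/ep hearts and 1079, 1335 and 1604 in the Mrps12ha/ha hearts. Both mutant groups held a heart near 1000 and a heart within the Mrps12+/+ range, and the differences from Mrps12+/+ were -0.35 for Mrps12ha/ha (interval -0.84 to 0.14, adjusted p = 0.359) and -0.25 for Mrps12ep/ep (interval -0.74 to 0.24). Srxn1 (ENSMUSG00000032802.8, chr2:152105516-152111376, plus strand), sulfiredoxin, which restores over-oxidised peroxiredoxins, was counted at 1038.5, 865 and 1426 in the Mrps12+/+ hearts, 904, 886 and 1109 in the Mrps12ep/ep hearts and 764, 1039 and 1181 in the Mrps12ha/ha hearts. All 3 genotypes overlapped, and the difference of Mrps12ha/ha from Mrps12+/+, -0.15 (interval -0.63 to 0.33), changed sign without Mrps12+/+ heart 3 (0.05) and without Mrps12ha/ha heart 1 (0.03). Mrps12+/+ heart 3 was the highest of the 9 hearts in Hmox1, Gclc, Gclm, Txnrd1 and Srxn1. It was also the heart with the brown adipocyte transcripts given above, whose part in these values was not tested.

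The 4 enzymes of superoxide and peroxide removal overlapped between genotypes in the heart in all 3 comparisons. Cat (ENSMUSG00000027187.10, chr2:103453849-103485160, minus strand), catalase, was counted at 18171.5, 13769.7 and 17878 in the Mrps12+/+ hearts, 15165, 10453 and 14426 in the Mrps12ep/ep hearts and 9430.1, 16493 and 10831 in the Mrps12ha/ha hearts. Mrps12ha/ha hearts 1 and 3 and Mrps12ep/ep heart 2 were the lowest, and Mrps12ha/ha heart 2 lay inside the Mrps12+/+ range. The Mrps12ha/ha level was 0.722 times that of Mrps12+/+ hearts (log2 difference -0.47, interval -0.99 to 0.05, adjusted p = 0.282), and Cat fell by 0.71 on the log2 scale without Mrps12ha/ha heart 2 (adjusted p = 0.0290), in the fit that called 27% of all genes. For Mrps12ep/ep against Mrps12+/+ the difference was -0.32 (interval -0.85 to 0.20, adjusted p = 1.0).

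Prdx3 (ENSMUSG00000024997.7, chr19:60864051-60874556, minus strand), the mitochondrial peroxiredoxin, was counted at 7289, 6552 and 6734 in the Mrps12+/+ hearts, 7801, 5288 and 7431 in the Mrps12ep/ep hearts and 4874, 8079 and 4887 in the Mrps12ha/ha hearts. Sod2 (ENSMUSG00000006818.5, chr17:13006846-13040063, plus strand), the manganese superoxide dismutase of the mitochondrial matrix, was counted at 24469, 22449 and 22832 in the Mrps12+/+ hearts, 24854, 17066 and 22878 in the Mrps12ep/ep hearts and 20235, 24360.1 and 16824 in the Mrps12ha/ha hearts. The same hearts, Mrps12ep/ep 2 and Mrps12ha/ha 1 and 3, were the lowest 3 of the 9 in Cat, Prdx3 and Sod2, and Mrps12ha/ha heart 2 was above every Mrps12+/+ heart in Prdx3. Differences of Mrps12ha/ha from Mrps12+/+ were -0.25 for Prdx3 (interval -0.73 to 0.24, adjusted p = 0.512) and -0.20 for Sod2 (interval -0.62 to 0.22, adjusted p = 0.538). Mrps12ep/ep hearts differed from Mrps12+/+ hearts by -0.02 for Prdx3 (interval -0.51 to 0.46) and by -0.12 for Sod2 (interval -0.54 to 0.29).

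Gpx1 (ENSMUSG00000063856.7, chr9:108338903-108340343, plus strand), the selenium-dependent peroxidase of cytosol and mitochondria, had another order between the hearts. It was counted at 2130.4, 1961 and 2651 in the Mrps12+/+ hearts, 2016, 3529.9 and 2159 in the Mrps12ep/ep hearts and 2467, 1833 and 4620.3 in the Mrps12ha/ha hearts. Mrps12ha/ha heart 3 and Mrps12ep/ep heart 2 were the highest, and Mrps12ha/ha heart 2 was the lowest of the 9. The difference of Mrps12ha/ha from Mrps12+/+ was 0.30 with a wide interval (-0.43 to 1.04, adjusted p = 0.597), and it became -0.07 without Mrps12ha/ha heart 3 and 0.60 (adjusted p = 0.191) without Mrps12ha/ha heart 2.

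**Figure D2:**
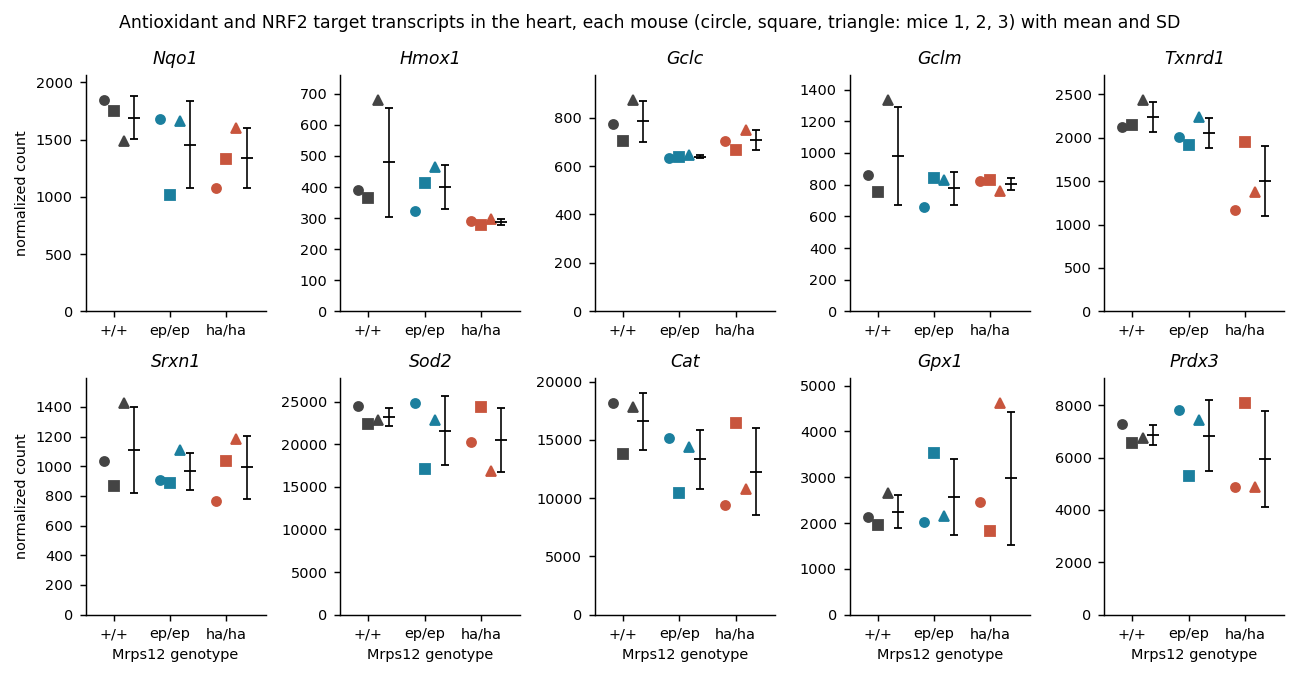
Normalized count (linear axis from 0) of each of the 10 genes in each heart, with symbols for mice 1, 2 and 3 of a genotype and the mean with its SD (n = 3) beside them. In Txnrd1 and Hmox1 every Mrps12ha/ha heart lies below every Mrps12+/+ heart, and in Cat, Prdx3 and Sod2 the Mrps12ha/ha square, heart 2, lies among the Mrps12+/+ hearts or above them.

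Counted over the 10 genes, the heart of Mrps12ha/ha against Mrps12+/+ mice gave 2 genes whose mice did not overlap and were lower and 0 that were higher, where 10.0% and 11.1% of all genes did so. For Mrps12ep/ep against Mrps12+/+ hearts 1 was lower, Gclc, and 0 higher, against 3.64% and 4.40%. For Mrps12ha/ha against Mrps12ep/ep hearts 1 was lower, Hmox1, and 1 higher, Gclc, against 7.82% and 8.77%. Of the 10 differences, 9 were below 0 for Mrps12ha/ha and 9 for Mrps12ep/ep against Mrps12+/+, comparisons that share the Mrps12+/+ mice. Of all 16057 genes, 8394 and 8389 were below 0. The medians of the 10 were -0.25 and -0.20, beside -0.02 and -0.01 over all genes, and for Mrps12ha/ha against Mrps12ep/ep the median was -0.09 beside -0.02. The medians for Mrps12ha/ha and Mrps12ep/ep against Mrps12+/+ were -0.24 and -0.06 without Mrps12+/+ heart 3. With array weights they were -0.31 and -0.04. Without Mrps12ha/ha heart 2, the remaining differences from Mrps12+/+ were -0.36 for Nqo1, -0.11 for Gclc, -0.27 for Gclm and -0.19 for Srxn1. They were -0.33 for Sod2 and -0.49 for Prdx3 (adjusted p = 0.0551, limma). From Mrps12ep/ep they were -0.11 for Nqo1, 0.18 for Gclc, 0.04 for Gclm, -0.02 for Srxn1 and -0.21 for Sod2. They were -0.38 for Cat, 0.44 for Gpx1 and -0.47 for Prdx3. None of these passed the test. A fit that weighted each heart by its own spread called Txnrd1, Prdx3 and Cat lower in Mrps12ha/ha than in Mrps12+/+ hearts, together with 34.7% of all genes. The same fit called Txnrd1 and Prdx3 lower and Gpx1 higher in Mrps12ha/ha than in Mrps12ep/ep hearts, together with 39.3% of all genes.

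**Figure D3:**
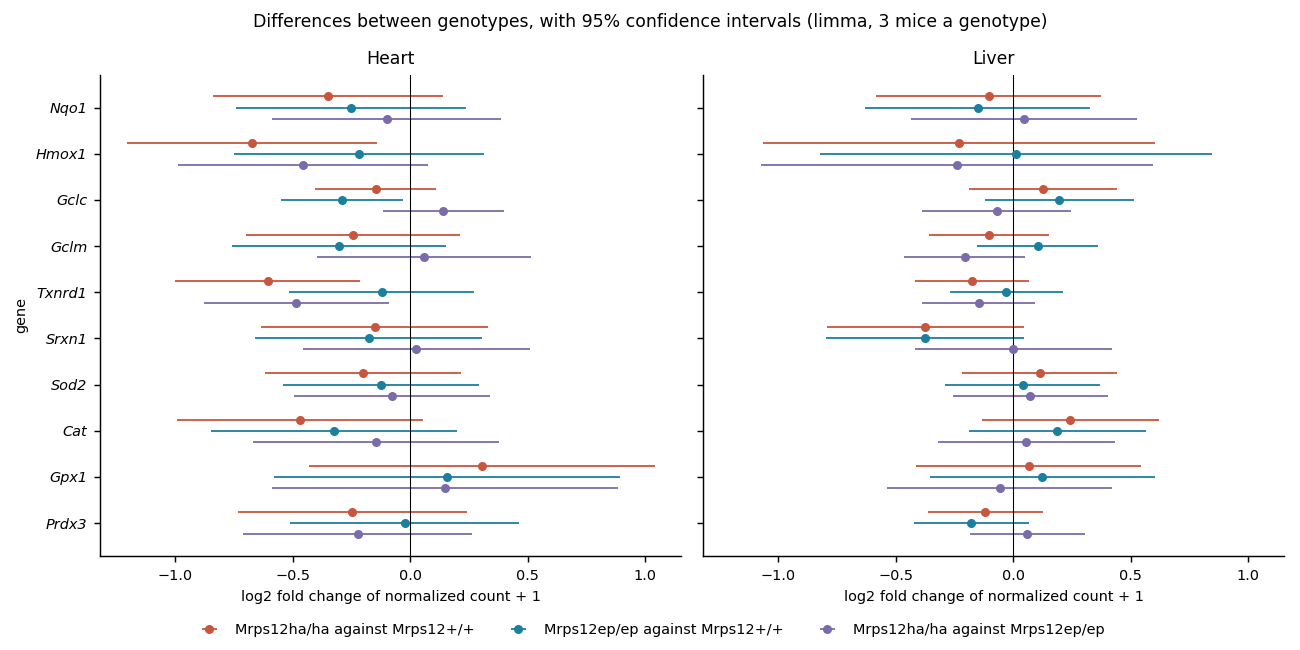
Log2 difference of the normalized count plus 1 between genotypes (x axis) for each of the 10 genes, in the heart (left) and the liver (right), with 95% confidence intervals from limma for the 3 comparisons. In the heart the intervals of Txnrd1 and Hmox1 for Mrps12ha/ha against Mrps12+/+ (-0.999 to -0.21 and -1.21 to -0.14) lie below 0 and none of the differences passes the test after adjustment.

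Within each genotype, the summed red cell transcripts and Gpx1 put the hearts in the same order, which did not hold across genotypes. The 6 erythroid markers summed to 2863 to 7280 RPM in the Mrps12+/+ hearts, 4013 to 7505 in the Mrps12ep/ep hearts and 5891 to 42709 in the Mrps12ha/ha hearts, and none of them was at 0 in every heart. In the Mrps12ha/ha hearts the sum was 14083 in mouse 1, 5891 in mouse 2 and 42709 in mouse 3, so that the heart with the highest Gpx1 also had the highest sum and the heart with the lowest Gpx1 had the lowest sum of its genotype. None of the 6 markers passed the test for Mrps12ha/ha against Mrps12+/+, 5 had an unadjusted p under 0.05, as had 19.7% of all genes, and 5 were called higher without Mrps12ha/ha heart 2, in the fit that called 27% of all genes. The genes most like Gpx1 over the 9 hearts, of 16056 compared, were Specc1 (Pearson r = 0.964), Pabpc1 (0.951), Cdr2 (0.949), Slc4a1 (0.949), which encodes the anion exchanger of red cells, and Hsf4 (0.947). These r values are a description of 9 libraries chosen as the highest of many, and share the depth and composition of each heart. The part of red cell RNA in the Gpx1 values was not tested. Mrps12ep/ep heart 2, second in Gpx1 at 3529.9, had an erythroid sum of 7505, close to the 7280 of Mrps12+/+ heart 3 with a Gpx1 count of 2651. Mrps12ha/ha heart 1, with a higher sum than either (14083), had a lower Gpx1 count than either (2467).

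**Figure D4:**
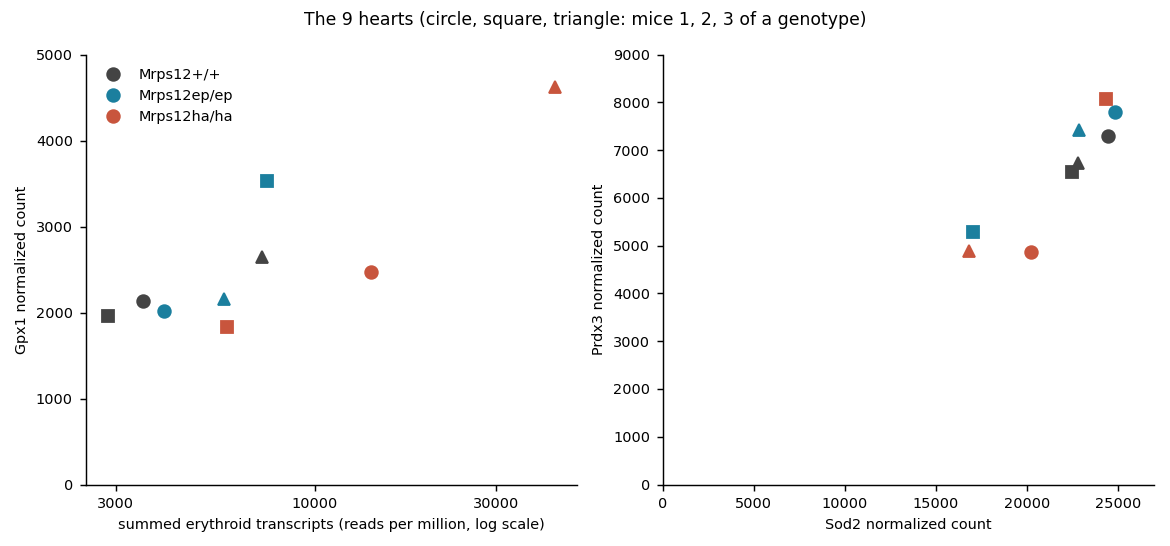
Left, Gpx1 normalized count against the summed level of 6 erythroid markers in RPM (log axis) in the 9 hearts. Right, Prdx3 against Sod2 normalized counts: 3 hearts, Mrps12ep/ep 2 and Mrps12ha/ha 1 and 3, lie apart at the low end of both genes.

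In the liver the inducible targets overlapped between genotypes with 1 exception. Srxn1 was counted at 2763.5, 2801 and 3598 in the Mrps12+/+ livers, 2240.5, 2905.5 and 1959.8 in the Mrps12ep/ep livers and 2716, 1870.1 and 2516 in the Mrps12ha/ha livers. All Mrps12ha/ha livers lay below all Mrps12+/+ livers, the highest of them by a small margin. The highest of the 9 livers was Mrps12+/+ liver 3, the one with the acute phase transcripts. The level was 0.771 times that of Mrps12+/+ livers for Mrps12ha/ha (log2 difference -0.37, interval -0.79 to 0.04, adjusted p = 0.402) and likewise 0.771 times for Mrps12ep/ep (-0.38, interval -0.79 to 0.04, adjusted p = 0.540). Between the mutants the difference was 0.00 (interval -0.42 to 0.42). When each mouse was left out, the differences from Mrps12+/+ ran from -0.48 to -0.21 for Mrps12ha/ha and from -0.53 to -0.25 for Mrps12ep/ep.

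Hmox1 was the member that varied most between livers. It was counted at 2276, 864 and 2367.5 in the Mrps12+/+ livers, 1856, 1239.5 and 2075 in the Mrps12ep/ep livers and 1352, 1187 and 1802 in the Mrps12ha/ha livers. The lowest and the highest liver were both Mrps12+/+, a 2.74-fold range, and the differences carried wide intervals: -0.23 for Mrps12ha/ha (-1.06 to 0.61) and 0.01 for Mrps12ep/ep (-0.82 to 0.85) against Mrps12+/+. The 5 genes most like Hmox1 over the 9 livers, of 15313 compared, were Lgmn (Pearson r = 0.956), a lysosomal protease, Slfn8 (0.955), Bin2 (0.953), Fcgr1 (0.952), an Fc receptor of macrophages, and Ahi1 (0.944), again as a description of the highest of many. The 10 macrophage and Kupffer cell markers summed to 279 to 793 RPM in the Mrps12+/+ livers, 394 to 611 in the Mrps12ep/ep livers and 286 to 620 in the Mrps12ha/ha livers. Mrps12+/+ livers 1, 2 and 3 had sums of 793, 279 and 328. In the same order, Mrps12ep/ep livers had 577, 394 and 611, and Mrps12ha/ha livers 425, 286 and 620. Within each mutant genotype the sum and Hmox1 put the livers in the same order. This did not hold in the Mrps12+/+ livers, where liver 3, with the acute phase transcripts, had the highest Hmox1 and liver 1 the highest sum. None of the 10 markers was at 0 in every liver. The part of macrophage RNA in the Hmox1 values was not tested.

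Gclc and Gclm were abundant in the liver and close between genotypes. Gclc was counted at 13991, 15987 and 11592 in the Mrps12+/+ livers, 14799, 18091 and 14573 in the Mrps12ep/ep livers and 16303, 13803 and 14994 in the Mrps12ha/ha livers. Gclm was counted at 7708, 6957 and 9050.3 in the Mrps12+/+ livers, 7867, 9065 and 8440.5 in the Mrps12ep/ep livers and 7875.5, 7225 and 6877 in the Mrps12ha/ha livers. The genotypes overlapped for both subunits in all comparisons. Against Mrps12+/+ livers, Gclc differed by 0.13 in Mrps12ha/ha (interval -0.19 to 0.44) and by 0.20 in Mrps12ep/ep livers (interval -0.12 to 0.51), and Gclm by -0.10 (interval -0.36 to 0.15) and 0.10 (interval -0.15 to 0.36).

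Txnrd1 was counted at 5422, 4953 and 5813 in the Mrps12+/+ livers, 4966, 6002 and 4932 in the Mrps12ep/ep livers and 5115, 4518 and 4689 in the Mrps12ha/ha livers. The difference of Mrps12ha/ha from Mrps12+/+ livers was -0.18 (interval -0.42 to 0.07, adjusted p = 0.490). The corresponding interval in the heart, -0.999 to -0.21, overlaps it, and the tissues were not tested against each other. Nqo1, low in the liver, was counted at 326, 275 and 327 in the Mrps12+/+ livers, 242, 278 and 317 in the Mrps12ep/ep livers and 397.5, 237.5 and 249.5 in the Mrps12ha/ha livers. Its highest and lowest livers were both Mrps12ha/ha, and the differences from Mrps12+/+ were -0.10 (interval -0.58 to 0.37) for Mrps12ha/ha and -0.15 (interval -0.63 to 0.33) for Mrps12ep/ep.

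Of the peroxide enzymes in the liver, Cat lay higher in all Mrps12ep/ep mice than in all Mrps12+/+ mice. It was counted at 145638, 160123 and 126093 in the Mrps12+/+ livers, 160215, 164748 and 164533 in the Mrps12ep/ep livers and 168302, 185558 and 155959 in the Mrps12ha/ha livers. The gap between the lowest Mrps12ep/ep and the highest Mrps12+/+ liver was small, and the lowest of the 9 was Mrps12+/+ liver 3, the one with the acute phase transcripts. Cat differed from Mrps12+/+ by 0.19 in Mrps12ep/ep (interval -0.19 to 0.56, adjusted p = 0.723) and by 0.24 in Mrps12ha/ha livers (interval -0.13 to 0.62, adjusted p = 0.546). Gpx1 was counted at 55627.5, 87409 and 86469 in the Mrps12+/+ livers, 70504, 98084 and 78637 in the Mrps12ep/ep livers and 82578, 85314 and 68404 in the Mrps12ha/ha livers. Mrps12+/+ liver 1 was the lowest, and the differences, 0.07 for Mrps12ha/ha (interval -0.41 to 0.55) and 0.12 for Mrps12ep/ep (interval -0.36 to 0.60), both turned negative without it (-0.15 and -0.09).

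The 2 mitochondrial enzymes overlapped between genotypes in the liver. Sod2 was counted at 8318, 8849 and 8416 in the Mrps12+/+ livers, 6864, 10764 and 9113 in the Mrps12ep/ep livers and 8723, 9609 and 9343 in the Mrps12ha/ha livers. Prdx3 was counted at 4447, 4884 and 5372 in the Mrps12+/+ livers, 3820.1, 4455 and 4725 in the Mrps12ep/ep livers and 4739, 4229.7 and 4538 in the Mrps12ha/ha livers. The highest and the lowest Sod2 liver were both Mrps12ep/ep, and Mrps12+/+ and Mrps12ep/ep livers held the extremes of Prdx3. Sod2 differed from Mrps12+/+ by 0.11 in Mrps12ha/ha (interval -0.22 to 0.44) and 0.04 in Mrps12ep/ep livers (interval -0.29 to 0.37), and Prdx3 by -0.12 (interval -0.36 to 0.13) and -0.18 (interval -0.42 to 0.07).

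**Figure D5:**
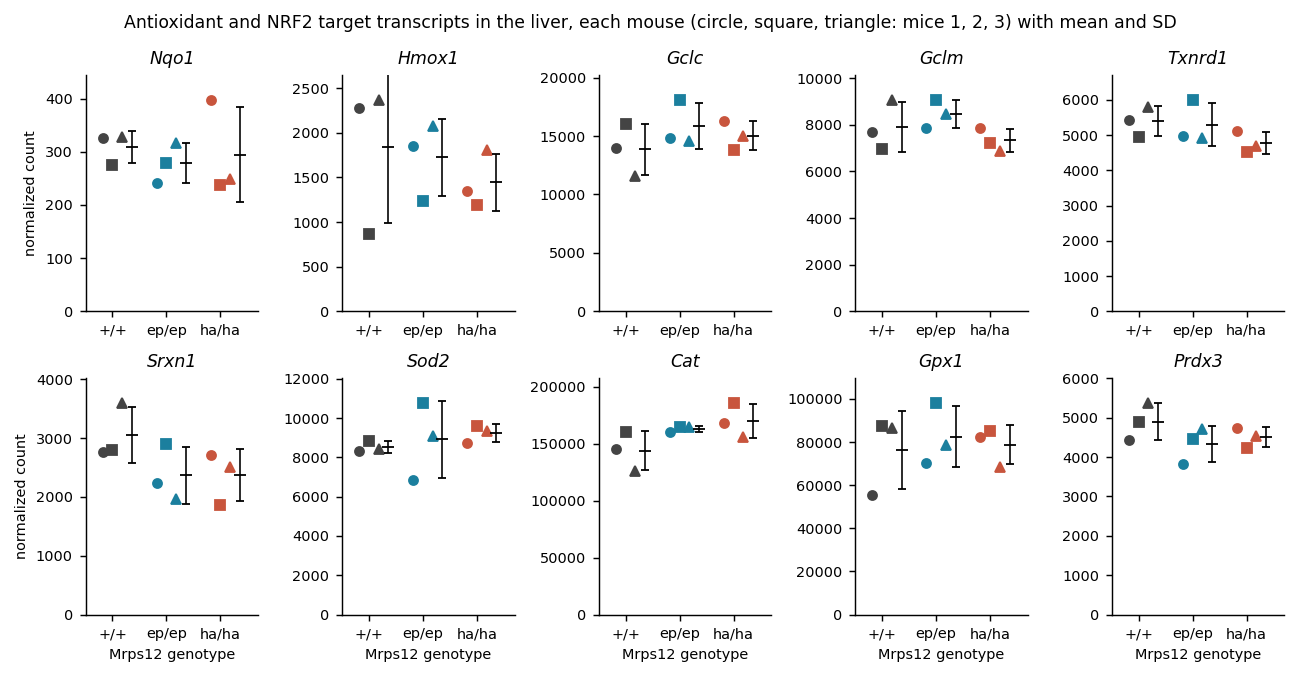
Normalized count (linear axis from 0) of each of the 10 genes in each liver, with symbols for mice 1, 2 and 3 of a genotype and the mean with its SD (n = 3). The genotypes overlap throughout except in Srxn1, where the 3 Mrps12ha/ha livers lie below the 3 Mrps12+/+ livers, and in Cat, where the 3 Mrps12ep/ep livers lie above them.

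Over the 10 genes in the liver, 1 was lower without overlap in Mrps12ha/ha than in Mrps12+/+ mice and 0 were higher, where 9.81% and 10.0% of all genes were. In Mrps12ep/ep against Mrps12+/+ livers 1 was higher and 0 lower, against 6.49% and 6.28%, and in Mrps12ha/ha against Mrps12ep/ep livers none was higher or lower, against 8.82% and 9.01%. The adjusted p-values of the 10 genes ran from 0.402 to 0.921, from 0.540 to 0.995 and from 0.666 to 0.999 in the 3 comparisons. Their median differences were -0.10, 0.03 and -0.03, beside -0.02, -0.01 and -0.00 over all genes. In Mrps12ha/ha against Mrps12ep/ep livers the 10 differences ran from -0.24 for Hmox1 (interval -1.07 to 0.59) to 0.07 for Sod2 (interval -0.26 to 0.40).

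The transcript that encodes NRF2, the factor that drives the inducible set, was measured beside it. NRF2 protein and its activity were not measured here. Nfe2l2 was counted at 4202, 4296 and 4792 in the Mrps12+/+ hearts, 4222, 4033 and 4214 in the Mrps12ep/ep hearts and 2953, 3751 and 3313 in the Mrps12ha/ha hearts. All Mrps12ha/ha hearts lay below all 6 others, at 0.751 times the Mrps12+/+ level (log2 difference -0.41, interval -0.67 to -0.16, adjusted p = 0.194). Without Mrps12ha/ha heart 2 Nfe2l2 fell by 0.50 against Mrps12+/+ (adjusted p = 0.00790) and by 0.41 against Mrps12ep/ep hearts (adjusted p = 0.0182), in the fits that called 27% and 23.2% of all genes. In the liver Nfe2l2 was counted at 4119, 3661 and 3462.5 in the Mrps12+/+ mice, 3806, 5012 and 4679 in the Mrps12ep/ep mice and 4824, 4426 and 5001 in the Mrps12ha/ha mice. There every Mrps12ha/ha mouse lay above every Mrps12+/+ mouse, at 1.27 times the level (0.34, interval 0.08 to 0.61, adjusted p = 0.261). Keap1, the inhibitor, covered a narrower range, at 2133 to 2464 in the hearts and 2370.4 to 2768 in the livers. Its difference of Mrps12ha/ha from Mrps12+/+ was -0.02 in the heart (interval -0.24 to 0.19) and -0.05 in the liver (interval -0.25 to 0.14).

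Nnt, the mitochondrial transhydrogenase that feeds NADPH to the matrix peroxidases, is listed under 2 overlapping gene IDs that share 3339 exon bases, so that the split of its reads between them is uncertain. Summed over both, it was counted at 33097, 33841.5 and 36794 in the Mrps12+/+ hearts, 34550.5, 20466 and 34867 in the Mrps12ep/ep hearts and 13461, 29699.6 and 20289 in the Mrps12ha/ha hearts. Mrps12ha/ha hearts 1 and 3 and Mrps12ep/ep heart 2, the hearts that were lowest in Cat, Prdx3 and Sod2, were also the lowest in this sum. By the longer gene ID alone, Mrps12ha/ha heart 2 (13965) lay below heart 3 (14992). The shorter ID held 0.24 and 0.35 times the count of the longer in Mrps12ha/ha hearts 1 and 3. In the other hearts this ratio was 0.84 to 1.13. In the livers the sums were 6683, 7536 and 8118 in Mrps12+/+, 7457, 8106 and 8183 in Mrps12ep/ep and 5919, 2755 and 5134 in Mrps12ha/ha mice. All Mrps12ha/ha livers lay below the 6 others.

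Around the 10 genes, 95 further genes of the same biology were followed in 9 lists: regulators of NRF2, glutathione synthesis and recycling, the other glutathione peroxidases, the other peroxiredoxins, thioredoxins and sestrins, the other superoxide dismutases, NADPH supply, heme and iron handling, other detoxification genes linked to NRF2, and selenoproteins. None of the 90 tested in the heart or the 91 tested in the liver passed the test in any comparison. At an unadjusted p under 0.05 there were 18, 1 and 16 in the heart and 12, 11 and 9 in the liver, for Mrps12ha/ha against Mrps12+/+, Mrps12ep/ep against Mrps12+/+ and Mrps12ha/ha against Mrps12ep/ep, of 91 gene IDs in the heart and 92 in the liver, beside the 19.7%, 1.69% and 17.9% and the 14.1%, 9.74% and 8.62% of all genes. Without Mrps12ha/ha heart 2, 9 were called higher and 16 lower against Mrps12+/+, 27.5% of those tested, and 10 higher and 12 lower against Mrps12ep/ep, 24.2%, close to the 27% and 23.2% of all genes. Of the 12 regulators, 1 was then called higher and 5 lower against Mrps12+/+, and of the 3 other superoxide dismutase genes, with the copper chaperone among them, 2 were called higher.

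Of the list genes in Mrps12ha/ha against Mrps12+/+ hearts, 11 were higher and 7 lower without overlap (12.1% and 7.69%, beside 11.1% and 10.0% of all genes). For Mrps12ep/ep against Mrps12+/+ hearts 1 was higher and 4 lower (1.099% and 4.40%, beside 4.40% and 3.64% of all genes). For Mrps12ha/ha against Mrps12ep/ep hearts 8 were higher and 6 lower (8.79% and 6.59%, beside 8.77% and 7.82%). Named are at most the 2 of each direction with the largest difference. The higher of these in the first comparison were Txnip and Chac1. Txnip, which binds and inhibits thioredoxin, was counted at 23808 to 43708.5 against 14733 to 20933 (log2 difference 0.89, adjusted p = 0.191). Chac1, which degrades glutathione, was counted at 144 to 167 against 94.3 to 117 (0.58, adjusted p = 0.206). The lower ones were Sod3, the extracellular superoxide dismutase (2114 to 2238 against 2657 to 4074, -0.51, adjusted p = 0.270), and Idh1, a cytosolic source of NADPH (1073 to 1510.0 against 1636 to 2029, -0.51, adjusted p = 0.194). Idh1 was also lower in Mrps12ep/ep than in Mrps12+/+ hearts (1427 to 1483, -0.29), as was the small MAF gene Mafk (1994 to 2258 against 2295 to 2697, -0.24), with an adjusted p of 1.0 for both. Ggct, which acts in glutathione breakdown, was higher in Mrps12ep/ep than in Mrps12+/+ hearts (568.5 to 626 against 501 to 551, 0.16, adjusted p = 1.0). In Mrps12ha/ha against Mrps12ep/ep hearts, Osgin1 (229.5 to 305 against 137 to 219, 0.49, adjusted p = 0.306) and Sod1, the cytosolic superoxide dismutase (10368 to 12445 against 7310.2 to 10044, 0.46, adjusted p = 0.238), were higher. Sod3 (-0.44, adjusted p = 0.343) and Btrc, a ubiquitin ligase subunit that targets NRF2 (471 to 604 against 654 to 693, -0.37, adjusted p = 0.244), were lower there.

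In the livers, 11 list genes were higher and 7 lower without overlap in Mrps12ha/ha against Mrps12+/+ mice. These were 12.0% and 7.61%, beside 10.0% and 9.81% of all genes. In Mrps12ep/ep against Mrps12+/+ mice 7 were higher and 3 lower (7.61% and 3.26%, beside 6.49% and 6.28%). In Mrps12ha/ha against Mrps12ep/ep mice 4 were higher and 10 lower (4.35% and 10.9%, beside 8.82% and 9.01%). Named by the same rule, in Mrps12ha/ha against Mrps12+/+ livers Osgin1 (2489.5 to 4699.9 against 1324.5 to 2090.4, mean 3819.9 against 1655, adjusted p = 0.151) and the selenophosphate synthetase gene Sephs2 (41072 to 51733 against 26507 to 33987, log2 difference 0.57, adjusted p = 0.145) were higher. Haptoglobin, Hp, was lower in both mutants (-0.85 in Mrps12ha/ha, adjusted p = 0.438, and -0.81 in Mrps12ep/ep, adjusted p = 0.581), where 1 Mrps12+/+ liver stood at 708327 and the others at 177523 and 183182. The longer Nnt gene ID was lower in Mrps12ha/ha than in Mrps12+/+ (-0.82, adjusted p = 0.232) and in Mrps12ep/ep livers (-0.87, adjusted p = 0.460). In Mrps12ep/ep against Mrps12+/+ livers the glutathione transferase genes Gsta4 (3038 to 3209 against 1158 to 2144, 1.03, adjusted p = 0.277) and Gstp1 (55979 to 58675 against 24807 to 45756, 0.69, adjusted p = 0.471) were higher, and Gpx3, the plasma glutathione peroxidase, was lower (327 to 433 against 507 to 728, -0.68, adjusted p = 0.456). Gsta2, another transferase gene, lay lower in Mrps12ha/ha than in Mrps12ep/ep livers (521 to 966 against 1419 to 2456, -1.44, adjusted p = 0.546), and glutaredoxin, Glrx (2308 to 2517 against 1417 to 2011, 0.51, adjusted p = 0.460), and Oplah (6402 to 6971 against 4407 to 5691, 0.40, adjusted p = 0.737) lay higher. Gstp1 and Gsta2 have close copies in the genome, and their counts are uncertain to that extent.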

How the data were processed

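RNA of whole hearts and livers was sequenced from 3 mice a genotype, with 3 technical libraries of each mouse (54 libraries, 18 columns). Column names carry the number of 1 mouse and the word pooled, taken here as its technical libraries together. The study's methods speak of pooling independent replicates, and whether a column and its read total hold all 3 libraries is not stated. Per the file headers and values, the deposited tables hold normalized counts per gene, to 1 decimal, normalized by the authors in each tissue separately. The submitters' processing notes name Trim Galore 0.4.1, cutadapt 1.18, FastQC 0.11.8, Salmon 1.1.0, DESeq2 and GRCm38.p6. Every value was a whole multiple of 1 step in its mouse, within its rounding to 1 decimal and a small allowance for the step. Low values were also held to a tolerance of 0.1 reads. Read totals were taken from these multiples. The deposited tables of the authors' own comparisons hold their fold changes and p-values and were not used.

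Groups came from the sample labels. All genes with a mean normalized count of at least 10 in the tissue were fitted with limma 3.58.1 (R 4.3.3; lmFit, eBayes with a trend) on log2(normalized count + 1), all 3 genotypes together, two-sided, with Benjamini-Hochberg adjustment and a threshold of 0.05. Fold changes on this scale understate changes of low genes. Levels per length used merged exons of the GENCODE annotation on GRCm38, computed with Python 3.11.15 and pandas 2.3.3. The procedure was tested on simulated data: for Mrps12ha/ha against Mrps12+/+, with a dispersion of 0.02, 94 (heart) and 97 (liver) of 100 genes changed 2-fold were called, and with a dispersion of 0.1, 16 and 11. Members and gene lists were chosen with earlier results of these data known.

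Named were the 10 genes, Mrps12, Nfe2l2, Keap1 and Nnt. From the pathway lists, the genes past the threshold were to be named (at most 5 a direction), and otherwise the 2 in each direction with the largest difference among those whose mice did not overlap. The 5 genes correlated best with the member of widest range in a tissue were named too. Alternatives were other pseudocounts (0.1 and 8), filters (a mean of 50, or none), scalings, array weights, robust variances, a fit of only the 2 genotypes compared, a replicate block and leaving out each mouse. A limma-voom fit on the recovered reads was chosen after seeing the data.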

Additional observations from a re-analysis of the deposited data

Results flagged for a closer look

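Nfe2l2 and Ggct had differences of opposite sign in the 2 tissues in Mrps12ha/ha against Mrps12+/+ mice. For each gene, every Mrps12ha/ha mouse lay on one side of every Mrps12+/+ mouse in the heart and on the other side in the liver. Of all genes, 11.1% were higher and 10.0% lower without overlap in the heart, and 10.0% and 9.81% in the liver. The share of all genes on opposite sides in the 2 tissues was not counted. The log2 difference of Nfe2l2 was -0.41 in the heart (adjusted p = 0.194, limma) and 0.34 in the liver (adjusted p = 0.261). That of Ggct, whose product acts in glutathione breakdown, was 0.29 in the heart (adjusted p = 0.228) and -0.31 in the liver (adjusted p = 0.362), with 609 to 716 against 501 to 551 normalized counts in the hearts and 308 to 393 against 404 to 464 in the livers. The difference between tissues was not tested, because the 2 tables were normalized separately. Ggct was chosen after its values were seen for this comparison.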

How the results depend on the processing

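The log2 differences of the 10 genes in 6 comparisons were recomputed 1020 times: 947 kept their direction and their side of the threshold, 9 kept their direction and passed the threshold, and 64 changed sign. All 9 that passed lay in the heart of Mrps12ha/ha mice. The number of the 10 genes called rose from 0 to 3 with array weights both against Mrps12+/+ and against Mrps12ep/ep, and ran from 0 to 2 and from 0 to 1 when each mouse was left out. Without Mrps12ha/ha heart 2, 4330 genes of all were called against Mrps12+/+ and 3730 against Mrps12ep/ep, where 5 and 4 were called with it, and with array weights 5573 and 6314. This heart had the smallest weight, 0.167; the cause was not tested. With array weights the sign changed for Gpx1 (-0.00013) and Prdx3 (0.11) in Mrps12ep/ep against Mrps12+/+ hearts, for Gclm (-0.050) and Srxn1 (-0.028) in Mrps12ha/ha against Mrps12ep/ep hearts, for Hmox1 (0.20) and Gpx1 (-0.053) in Mrps12ha/ha and Sod2 (-0.039) in Mrps12ep/ep against Mrps12+/+ livers, and for Nqo1 (-0.0021) between the mutants' livers. With limma-voom it changed for Prdx3 (0.019), Gclm (-0.034) and Srxn1 (-0.018) in the same heart comparisons, for Gpx1 (-0.00080) in Mrps12ha/ha and Hmox1 (-0.081) and Sod2 (-0.014) in Mrps12ep/ep against Mrps12+/+ livers, and for Nqo1 (-0.074) and Srxn1 (-0.067) between the mutants' livers. Re-centring changed it for Txnrd1 (0.0081) and quantile normalization for Sod2 (-0.0089) in Mrps12ep/ep against Mrps12+/+ livers. Differences whose sign depended on 1 mouse are given as their lowest and highest value when each mouse was left out. In Mrps12ha/ha against Mrps12+/+ hearts they ran for Gpx1 -0.068 to 0.60 and Srxn1 -0.31 to 0.046. In Mrps12ep/ep against Mrps12+/+ hearts they ran for Gpx1 -0.096 to 0.31, Hmox1 -0.38 to 0.064, Prdx3 -0.13 to 0.15, Sod2 -0.23 to 0.038 and Srxn1 -0.34 to 0.020. In Mrps12ha/ha against Mrps12ep/ep hearts they ran for Cat -0.38 to 0.021, Gclm -0.058 to 0.12, Gpx1 -0.23 to 0.44, Nqo1 -0.34 to 0.046, Sod2 -0.24 to 0.058 and Srxn1 -0.11 to 0.20. In Mrps12ha/ha against Mrps12+/+ livers they ran for Gpx1 -0.15 to 0.18, Hmox1 -0.70 to 0.023 and Nqo1 -0.34 to 0.031. In Mrps12ep/ep against Mrps12+/+ livers they ran for Gpx1 -0.091 to 0.23, Hmox1 -0.46 to 0.26, Sod2 -0.11 to 0.22 and Txnrd1 -0.12 to 0.026. In Mrps12ha/ha against Mrps12ep/ep livers they ran for Cat -0.010 to 0.12, Gclc -0.13 to 0.030, Gpx1 -0.16 to 0.074, Nqo1 -0.19 to 0.18, Prdx3 -0.029 to 0.12, Sod2 -0.10 to 0.22 and Srxn1 -0.13 to 0.16. Deviations of mice with the same replicate number correlated at 0.578, 0.409 and -0.0697 between Mrps12+/+ and Mrps12ep/ep hearts, at -0.231 to 0.0886 in the other heart pairs and at -0.133 to 0.164 in the liver. As no comparison had all 3 pairs above 0.1, the numbers were not taken as pairs. With the number as a replicate block 0 of the 10 genes were called in each comparison, and of all genes 3, 0 and 4 in the heart and 7, 9 and 6 in the liver, where 5, 0, 4, 1, 1 and 1 were called without it. The planned edgeR and DESeq2 fits were not run. The simulated call rates given with the methods show how far detection with 3 mice a genotype depended on the spread.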
